A study of Mus musculus with 6 samples.

Results

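The chromobox genes encode small chromatin proteins that carry a chromodomain, the fold that reads methylated lysines on histone H3. The members described here are the rows of the count files with the symbols Cbx1, Cbx2, Cbx3, Cbx5, Cbx6, Cbx7 and Cbx8, which makes 7 of the 23260 gene lines. They fall into the Polycomb subgroup (4 genes, Cbx2, Cbx6, Cbx7 and Cbx8) and the heterochromatin subgroup (3 genes, Cbx1, Cbx3 and Cbx5). Polycomb chromobox proteins are alternative subunits of canonical Polycomb repressive complex 1 (PRC1), and they bring it to chromatin marked with H3K27me3, the product of Polycomb repressive complex 2 (PRC2). CBX2, CBX7 and CBX8 exchange with each other as cells differentiate, and PRC1 keeps developmental genes such as the Hox clusters silent. Cbx5, Cbx1 and Cbx3 encode HP1α, HP1β and HP1γ, which bind H3K9 methylation in heterochromatin and, in the case of HP1γ, also over transcribed genes.

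Whole embryonic submandibular glands (eSMGs) of ICR mice at embryonic day 14 were cultured without or with AMD3100, an antagonist of the chemokine receptor CXCR4, and the study asked how blocking CXCR4 changes gene expression in the developing gland. The control group had no AMD3100, and the treated group had 50 µM AMD3100 in the medium and was collected at 6 h. Each of the 3 libraries per group came from a tube with up to 10 pooled glands, so a replicate is a pool and not an animal, and no source states that tubes came from separate litters. The glands hold epithelium, mesenchyme, vessels, nerves and blood cells, so fewer cells of a type and less RNA per cell cannot be told apart in these values.

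The libraries were made from transcript 3′ ends and read as single reads of 50 bases. Between 9051595 and 14393031 reads were counted on genes per library. Levels are given as CPM, counts scaled to a common library total with TMM factors, which corrects for differences in library makeup. Since each transcript gives reads from its 3′ end only, CPM is not divided by length here, but capture at different 3′ ends can still differ, so an order of levels between genes is approximate. The replicate 3 libraries of both groups held more RNA of skeletal muscle markers and less of mesenchymal markers than the 4 others, so the members' fold changes are also given without them. All 7 members passed edgeR's filter on low counts, as 13610 genes did. Markers of the labelled tissue were present in every library. Cdh1, the epithelial cadherin, was the most abundant of 8 epithelial markers, at 211 to 507 CPM, and the collagen gene Col3a1 led the 7 mesenchymal markers, at 407 to 1421 CPM.

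The members' levels spanned a wide range. Cbx6 had the highest mean level in both groups, at 469 ± 106 CPM in control and 494 ± 148 CPM in AMD3100-treated eSMGs (mean ± SD, n = 3 in each group). Cbx5 followed at 321 ± 89.4 CPM in control eSMGs. Cbx6 was above Cbx5 in 5 of the 6 libraries, the exception being AMD3100 replicate 2, and the ranges of these genes overlapped in the treated group. Cbx3 and Cbx1 were next at 96.4 ± 12.7 and 73.2 ± 31.2 CPM in control eSMGs, and their ranges overlapped. Cbx2 stood at 30.5 ± 17.4 CPM, below the lowest value of Cbx3 in control eSMGs. Cbx7 and Cbx8 were near the lower limit of these libraries, at 3.45 ± 3.22 and 2.04 ± 0.103 CPM in control eSMGs. Scaled by the raw library totals alone, without the TMM factors, 3 counts correspond to between 0.208 and 0.331 CPM. The TMM factors ran from 0.901 in AMD3100 replicate 3 to 1.21 in AMD3100 replicate 1. This range is therefore only approximate on the scale of the members' levels.

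**Figure D1:**
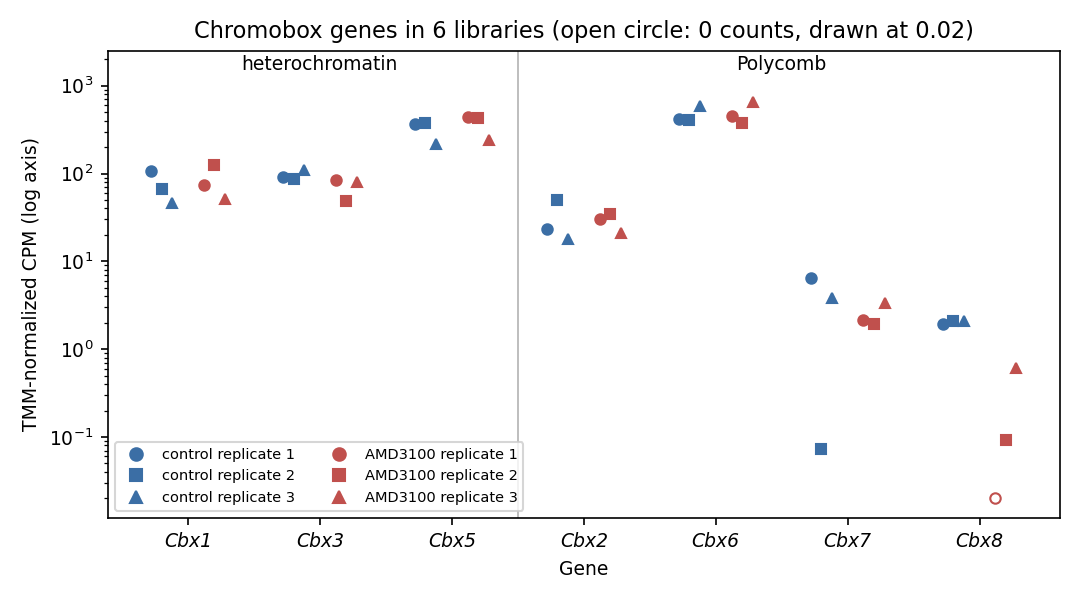
TMM-normalized CPM (log axis) of the 7 chromobox genes, with a symbol for each of the 6 libraries, control in blue and AMD3100 in red. The treated libraries of Cbx8, at 0 to 0.614 CPM, all lie below its control libraries, at 1.93 to 2.11 CPM, and its 0 counts in AMD3100 replicate 1 are drawn as an open circle at 0.02 CPM.

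Cbx8, which encodes a PRC1 subunit, showed the lowest fold change of the family. It had 22, 29 and 21 counts in control replicates 1, 2 and 3, and 0, 1 and 5 counts in AMD3100 replicates 1, 2 and 3. In CPM these were 1.93, 2.11 and 2.09 against 0, 0.0922 and 0.614. All 3 treated libraries lay below all 3 control libraries. Summed over the group and set against the library totals, the 6 treated counts were 11.8-fold lower than the 72 control counts, with a counting interval of 5.14-fold to 33.1-fold (95%, exact). This interval holds for counting error alone, because PCR copies of a molecule are counted as separate reads.

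The exact Poisson interval of the 5 counts in AMD3100 replicate 3 ran from 0.199 to 1.43 CPM. It overlapped the intervals of the 3 control libraries, of which the lowest began at 1.21 CPM. The upper limits in AMD3100 replicates 1 and 2 were 0.212 and 0.514 CPM, below every control interval. The SD of the 3 control values, 0.103 CPM, was smaller than the 0.421 CPM that counting alone gives at this depth, so the close control values understate the error of the control mean. The SD of the treated values was 0.331 CPM, against 0.167 CPM from counting alone.

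**Figure D2:**
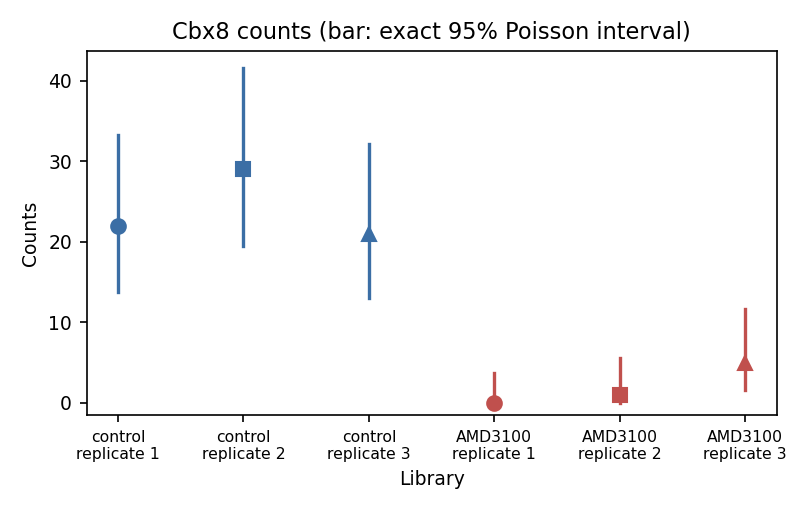
Counts of Cbx8 in each library (symbols) with exact 95% Poisson intervals (bars). The control libraries held 21 to 29 counts and the treated libraries 0 to 5.

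Across the whole table, edgeR's quasi-likelihood test gave Cbx8 a log2 fold change of -3.17 (SE 1.65) with a 95% interval of -6.90 to 0.57, and the adjusted p was 1. The fitted value depends on the small prior count that edgeR adds, and is no bound on the fold. With 3 against 3 libraries the exact two-sided permutation test of log2(CPM + 1) gave p = 0.1, the smallest it allows. With the replicate block, in which libraries of the same number are paired, the log2 fold change was -4.01 (SE 2.18) and edgeR's adjusted p was 0.802. Without AMD3100 replicate 3 the log2 fold change was -5.34. By its unadjusted p in edgeR's main fit, 0.0871, Cbx8 ranked 458 of the 13610 genes. EdgeR's unadjusted p was 0.0980 with the replicate block and 0.131 with no filter on low counts. DESeq2, limma-voom after quantile normalization and a version of the study's procedure put it past a fold change of 1.5 with unadjusted p-values of 0.0349, 0.0395 and 0.0278, and the adjusted p was 1 in the first and second of these.

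The bases before the Cbx8 transcript are shown because Cbx8 is the member with the largest difference. The stretch covers chr11:119040970-119041163 on the minus strand of GRCm38.p6 (RefSeq). It ends 56 bases before the RefSeq start, at the most upstream start annotated in GENCODE vM1. It is written 5′ to 3′ along the gene, with every match to a searched motif in capitals.

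Cbx8: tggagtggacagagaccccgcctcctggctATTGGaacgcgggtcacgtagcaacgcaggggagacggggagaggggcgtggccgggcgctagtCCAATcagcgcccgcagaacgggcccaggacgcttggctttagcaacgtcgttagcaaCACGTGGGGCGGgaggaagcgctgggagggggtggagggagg

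The motifs searched on both strands were the E-box (CACGTG), the CCAAT box, the GC box (GGGCGG), the TATA box (TATAAA) and the E2F motif (TTTNNCGC). In the 250 bases before the RefSeq start, Cbx8 held 1 CACGTG, 2 CCAAT (once as ATTGG) and 1 GGGCGG, with CACGTG and GGGCGG side by side without overlap. Of 32536 promoters of this length, 6.04% held CACGTG, 33.8% CCAAT, 33.0% GGGCGG, 12.3% TATAAA and 4.31% TTTNNCGC. The Cbx8 window held 22 CpG, more than in 85.1% of promoters. RefSeq promoters were at hand for 6 of the 7 members. CACGTG was also in the windows of Cbx5 and Cbx6. A match describes these letters and was not tested for use.

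Cbx2 and Cbx8 are neighbours on chromosome 11, at chr11:119023019-119031275 and chr11:119036303-119040913 (GRCm38), with 5027 bases between them. Cbx2, whose protein compacts chromatin within PRC1, stood at 23.3, 50.3 and 17.9 CPM in control replicates 1, 2 and 3. In AMD3100 replicates 1, 2 and 3 it stood at 30.4, 34.8 and 21.1 CPM. The groups overlapped, and the treated library was the higher in 2 of the 3 pairs of the same number. The log2 fold change was -0.08 (SE 0.44), with a 95% interval of -1.08 to 0.91 and an adjusted p of 1 (edgeR). With the replicate block it was 0.03, and without control replicate 2 it was 0.48, both of which turned its direction.

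Cbx6 and Cbx7 lie on chromosome 15, at chr15:79823898-79834333 and chr15:79915804-79971143, with 81470 bases between them. Cbx6 took between 88.5% and 96.3% of the summed CPM of the Polycomb members in each library. It stood at 414, 402 and 591 CPM in control replicates 1, 2 and 3 and at 451, 373 and 660 CPM in AMD3100 replicates 1, 2 and 3. The groups overlapped, and the highest value of each group was that of replicate 3. The log2 fold change was 0.08 (SE 0.33), with a 95% interval of -0.66 to 0.81 and an adjusted p of 1 (edgeR). It was -0.20 without AMD3100 replicate 3, -0.02 without control replicate 2 and -0.01 without control replicate 1.

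Cbx7, which encodes the main Polycomb chromobox protein of embryonic stem cells, had 74, 1 and 38 counts in control replicates 1, 2 and 3. It had 37, 21 and 27 counts in AMD3100 replicates 1, 2 and 3. The single count in control replicate 2, at 0.0728 CPM with a Poisson upper limit of 0.406 CPM, lay below the intervals of the 5 other libraries, of which the lowest began at 1.20 CPM. The log2 fold change of -0.49 (SE 1.22, 95% interval -3.26 to 2.29, edgeR adjusted p = 1) therefore rested on a control group with an SD close to its mean. Without control replicate 1 it was 0.35 and with the replicate block 0.41, both of which turned its direction.

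Among the heterochromatin members, Cbx3 (chr6:51470154-51483704) was the other gene whose groups did not overlap. It stood at 92.1, 86.4 and 111 CPM in control replicates 1, 2 and 3 and at 83.6, 48.9 and 80.6 CPM in AMD3100 replicates 1, 2 and 3. The 3 treated libraries lay below the 3 control libraries, and the nearest were AMD3100 replicate 1 and control replicate 2. The log2 fold change was -0.44 (SE 0.31), with a 95% interval of -1.14 to 0.26 and an adjusted p of 1 (edgeR). It was lower in all 3 pairs of the same number. With the replicate block the value was -0.47 (SE 0.18), with an edgeR p of 0.0257 before and 0.703 after adjustment. Without AMD3100 replicate 2 the log2 fold change, unblocked, was -0.23. All 251 windows of 50 bases in the last 300 bases of Cbx3 had another exact match in NCBIM37, the mouse build at hand, and RefSeq lists 6 Cbx3 pseudogenes, of which 0 have a row in the files. The level of Cbx3 thus depends on how reads with several places were assigned, which the sources used here do not give, and is uncertain.

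Cbx5 (chr15:103191546-103239904) was the most abundant heterochromatin member and took between 58.2% and 73.9% of their summed CPM. It stood at 367, 378 and 218 CPM in control replicates 1, 2 and 3 and at 443, 430 and 238 CPM in AMD3100 replicates 1, 2 and 3. Each treated library was above the control library of the same number, by 1.21-fold, 1.14-fold and 1.09-fold, but the groups overlapped. The log2 fold change was 0.21 (SE 0.36), with a 95% interval of -0.60 to 1.02 and an adjusted p of 1 (edgeR). With the replicate block edgeR's adjusted p was 0.817, and without control replicate 3 the log2 fold change was -0.005.

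Cbx1 (chr11:96788680-96808982) stood at 107, 66.7 and 45.9 CPM in control replicates 1, 2 and 3 and at 73.2, 124 and 51.1 CPM in AMD3100 replicates 1, 2 and 3. The order of the libraries differed between the groups, with replicate 1 highest in control and replicate 2 highest among the treated libraries. The groups overlapped. The log2 fold change was 0.18 (SE 0.43), with a 95% interval of -0.79 to 1.15 and an adjusted p of 1 (edgeR). It was -0.23 without AMD3100 replicate 2 and -0.07 without control replicate 3.

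**Figure D3:**
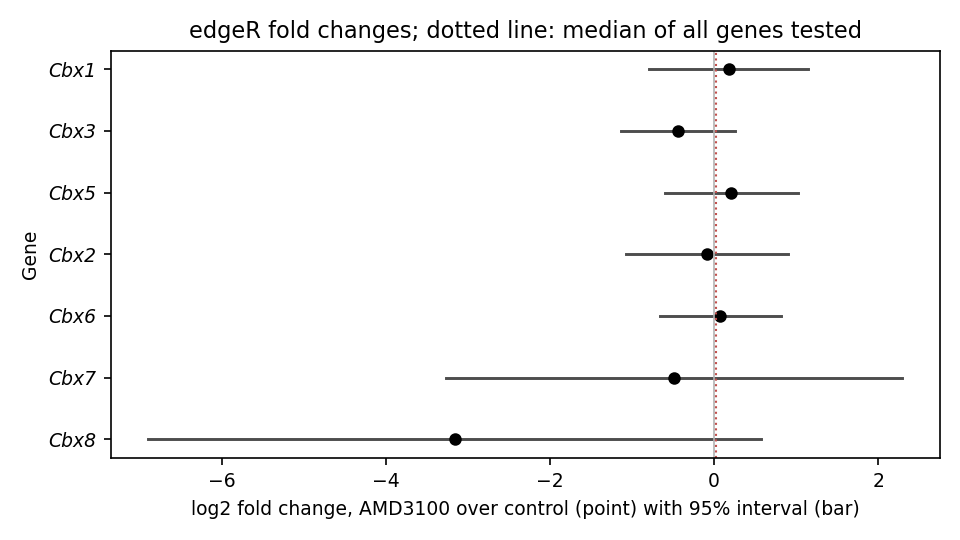
Log2 fold change of AMD3100 over control for each chromobox gene (points) with 95% intervals from edgeR's quasi-likelihood test (bars), and the median of all genes tested as a dotted line. All 7 intervals include 0, and those of Cbx7 and Cbx8 are the widest.

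Counted over the family, 4 members had a lower and 3 a higher fitted level in AMD3100-treated eSMGs. The median log2 fold change was -0.28 over the Polycomb members and 0.18 over the heterochromatin members, beside 0.02 over all genes tested. The Polycomb median was 0.022 with limma-voom and 0.042 with the replicate block, and the heterochromatin median was -0.23 without AMD3100 replicate 2 and -0.07 without control replicate 3. None of the 7 passed both thresholds, a fold change over 1.5 and an unadjusted p under 0.05, in edgeR's test. Of all 13610 genes, 228 did (1.68%), of which 54 were higher (0.397%) and 174 lower (1.28%). The groups did not overlap for 2 of the 7, Cbx3 and Cbx8, both lower in AMD3100-treated eSMGs. Groups did not overlap for 7.44% of all genes tested, and the treated group was the lower for 4.17%. With replicates 1 and 2 only, the log2 fold change was -5.33 for Cbx8, -0.43 for Cbx3, 0.22 for Cbx5, 0.18 for Cbx1, -0.18 for Cbx2, 0.01 for Cbx6 and -0.69 for Cbx7, and edgeR's adjusted p was 0.905 or higher for each of the 7. After adjustment, edgeR called 0 genes (0%), against 228 genes at an unadjusted p under 0.05 and 5 genes by DESeq2 after adjustment. With the replicate block, 598 genes (4.39%) and 0 members passed both thresholds.

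The replicate 3 libraries stood apart within the family in both groups. In both replicate 3 libraries, Cbx1, Cbx5 and Cbx2 were lower and Cbx6 was higher than in the 4 other libraries. Cbx5, for example, stood at 218 and 238 CPM in replicate 3 and between 367 and 443 CPM elsewhere. Cbx6 stood at 591 and 660 CPM in replicate 3 and between 373 and 451 CPM elsewhere. The summed heterochromatin members were 1.27, 1.17 and 0.609 times the summed Polycomb members in control replicates 1, 2 and 3, and 1.24, 1.47 and 0.540 times in AMD3100 replicates 1, 2 and 3. The ratio was thus above 1 in 4 libraries and below 1 in both replicate 3 libraries. The heterochromatin sum includes Cbx3, whose level is uncertain and which made up 16.3% of it in control replicate 2. That library had the lowest ratio above 1, and its place above 1 depends on Cbx3.

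Cell type markers differed in the same libraries. The summed CPM of 5 skeletal muscle markers was 1206 and 1543 in control and AMD3100 replicate 3 and between 129 and 256 in the 4 others. Their most abundant gene, Myog, a muscle transcription factor, stood at 521 and 485 CPM in replicate 3 and between 9.96 and 41.1 CPM elsewhere. The 7 mesenchymal markers summed to 1703 and 1476 CPM in replicate 3 and to between 3820 and 3920 CPM elsewhere. The 5 macrophage markers, led by C1qa, summed to 223 and 156 CPM in replicate 3 and to between 59.3 and 79.8 CPM elsewhere. None of the muscle or mesenchymal markers was at 0 in a library, while Fcgr1 of the macrophage list was at 0 in control replicate 1 and AMD3100 replicate 2. The part of these markers in the levels of the chromobox genes was not tested.

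**Figure D4:**
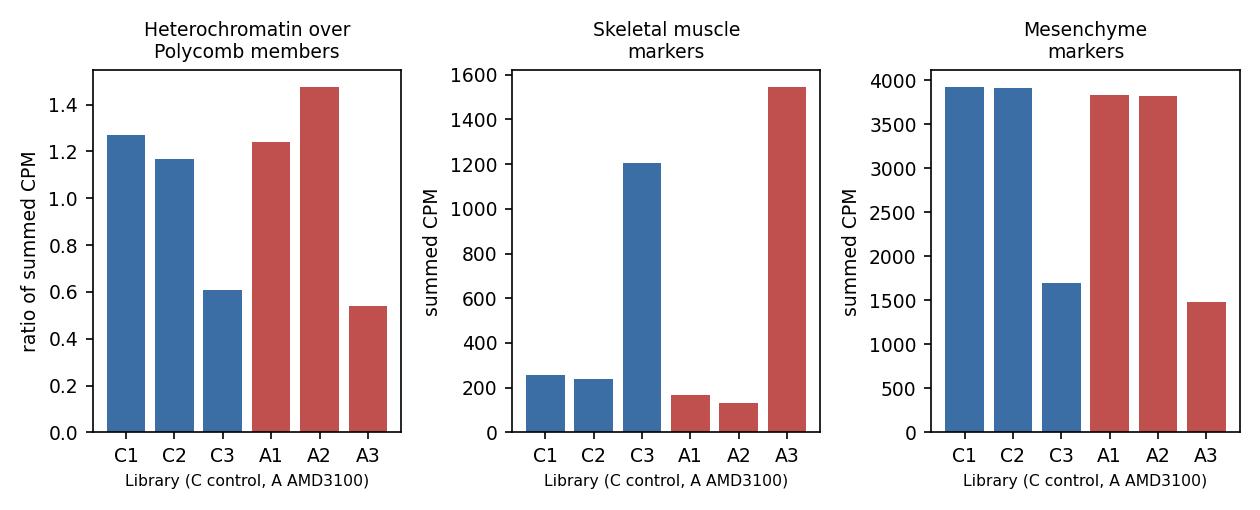
Ratio of the summed CPM of heterochromatin to Polycomb chromobox genes (left), and summed CPM of skeletal muscle (middle) and mesenchymal markers (right), as bars for control (C, blue) and AMD3100 (A, red) replicates 1 to 3. In both replicate 3 libraries the ratio was below 1, muscle markers were higher and mesenchymal markers lower than in the other libraries.

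The summed CPM of the 8 epithelial markers was also lower in both replicate 3 libraries, at 422 in control and 792 in AMD3100-treated eSMGs, against 874 to 934 elsewhere, although Cdh1 was at its highest, 507 CPM, in AMD3100 replicate 3. The sums of the other lists did not separate replicate 3 of both groups from the rest. The 4 genes of dividing cells, led by Cdk1, summed to between 285 and 459 CPM. The 5 neuronal markers, led by Tubb3, summed to between 250 and 494 CPM. The 6 erythroid markers, led by the globin gene Hba-a1, had the largest sums, from 6896 to 19090 CPM. The 5 endothelial markers, led by Kdr, summed to between 15.96 and 46.9 CPM, with Cdh5 at 0 in AMD3100 replicate 2 and Tie1 at 0 in control replicate 2. Of the 8 marker lists, 0 genes passed both thresholds between AMD3100-treated and control eSMGs.

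Over the 6 libraries, Cbx1, Cbx2 and Cbx5, the members lower in replicate 3, varied opposite to Cbx6. Pearson's r of log2(CPM + 1) with Cbx6 was -0.90 for Cbx5, -0.85 for Cbx1 and -0.74 for Cbx2 (n = 6). It was 0.79 between Cbx1 and Cbx5 and 0.73 between Cbx5 and Cbx2, but only 0.40 between Cbx1 and Cbx2. Cbx2 and Cbx7 had r = -0.87, where control replicate 2 held the highest Cbx2 and the lowest Cbx7 level. Cbx3 and Cbx8, both lower in the treated libraries, had r = 0.69, and Cbx1 and Cbx3 had r = -0.68. These are the values of only some of the 21 pairs, given as a description, and the 6 points share their group, replicate number and depth.

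The partners of the Polycomb members in PRC1 held the 2 genes past both thresholds in the lists of chromatin genes. Of 18 PRC1 genes other than the chromobox genes, 17 were tested, and Phc2 and Rybp (11.8%) passed both thresholds, against 1.68% of all genes tested. Both were lower in AMD3100-treated eSMGs, where 1.28% of all genes tested passed both thresholds as lower, and neither reached a 2-fold change. The study singled out PRC1 genes on these libraries, so this count is not independent evidence of their direction. The study also reports qPCR of key genes, which is not used here. The median log2 fold change of the list was -0.15, beside 0.02 over all genes tested.

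Phc2, a Polyhomeotic subunit that joins PRC1 complexes into clusters, stood at 67.5, 67.3 and 58.7 CPM in control replicates 1, 2 and 3. It stood at 34.0, 32.6 and 34.4 CPM in AMD3100 replicates 1, 2 and 3. The groups were far apart for Phc2, with the lowest control library above every treated library. Its log2 fold change was -0.94 (SE 0.26), with an edgeR p of 0.00596 before and 1 after adjustment. Rybp, which takes the place of chromobox proteins in variant PRC1, stood at 20.3, 17.3 and 20.1 CPM in control replicates 1, 2 and 3. It stood at 10.4, 8.76 and 9.95 CPM in AMD3100 replicates 1, 2 and 3. Its groups did not overlap, and its log2 fold change was -0.99 (SE 0.34), with an edgeR p of 0.0191 before and 1 after adjustment. Without control replicate 3, the edgeR p of Rybp before adjustment was 0.0509.

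The 11 PRC2 genes, whose complex sets the mark that the Polycomb members read, were all tested and 0 passed both thresholds, with a median log2 fold change of -0.10. Ezh2, the methyltransferase subunit, had the lowest p. It stood at 94.4, 93.5 and 116 CPM in control replicates 1, 2 and 3 and at 133, 131 and 141 CPM in AMD3100 replicates 1, 2 and 3. Its groups did not overlap, with a log2 fold change of 0.41 (SE 0.26) and an edgeR adjusted p of 1. Eed, which binds H3K27me3 for PRC2, followed at -0.65 (SE 0.42, edgeR adjusted p = 1), with 28.4 ± 11.8 CPM in control and 18.0 ± 5.03 CPM in AMD3100-treated eSMGs. Its groups overlapped, and the value was -0.34 without control replicate 1 and -0.44 without AMD3100 replicate 2.

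Of 15 genes for H3K9 methylation and HP1 partners, 14 were tested and 0 passed both thresholds, with a median log2 fold change of 0.13. The lowest p was that of Daxx, a histone H3.3 chaperone, at 60.3 ± 22.1 CPM in control and 39.8 ± 14.4 CPM in AMD3100-treated eSMGs. Its log2 fold change was -0.60 (SE 0.41), with an edgeR adjusted p of 1. It was -0.34 without AMD3100 replicate 3 and -0.37 without control replicate 1, and it passed both thresholds at -0.86 without control replicate 3 and at -0.60 with replicates 1 and 2 only. Lbr, the lamin B receptor that binds HP1 at the nuclear envelope, stood at 50.9 ± 14.4 and 65.1 ± 0.778 CPM, with a log2 fold change of 0.36 (SE 0.30) and an edgeR adjusted p of 1. It was 0.17 without control replicate 2 and 0.59 without control replicate 3. The groups overlapped for both. With the replicate block, 1 gene of this list and 1 of the PRC2 list passed both thresholds, Daxx and Eed, while Phc2 and Rybp remained the 2 PRC1 genes that did, against 4.39% of all genes.

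Classical Polycomb targets were mostly at or near the limit of these libraries. Of 41 genes of the Hox clusters and the Cdkn2a and Cdkn2b locus, 31 had at least 1 count and 6 were tested. None of the 6 passed both thresholds, and their median log2 fold change was -1.08, or -0.70 with the replicate block. Hoxc13 stood at 0.963, 0 and 0.499 CPM in control replicates 1, 2 and 3 and at 1.27, 8.11 and 0 CPM in AMD3100 replicates 1, 2 and 3, so 1 treated library held most of its counts. Hoxd4 stood at 3.85, 2.91 and 4.99 CPM in control replicates 1, 2 and 3 and at 0.634, 0 and 2.82 CPM in AMD3100 replicates 1, 2 and 3. The groups of Hoxd4 did not overlap, but the nearest libraries were close, and its log2 fold change of -1.78 (SE 1.37) had an edgeR adjusted p of 1. It ranged from -3.54 without AMD3100 replicate 3 to -1.19 without AMD3100 replicate 2, and with limma-voom it was -3.03 and past both thresholds. For Hoxc13 the log2 fold change, 2.67 (SE 1.91), was 0.41 without AMD3100 replicate 2.

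**Figure D5:**
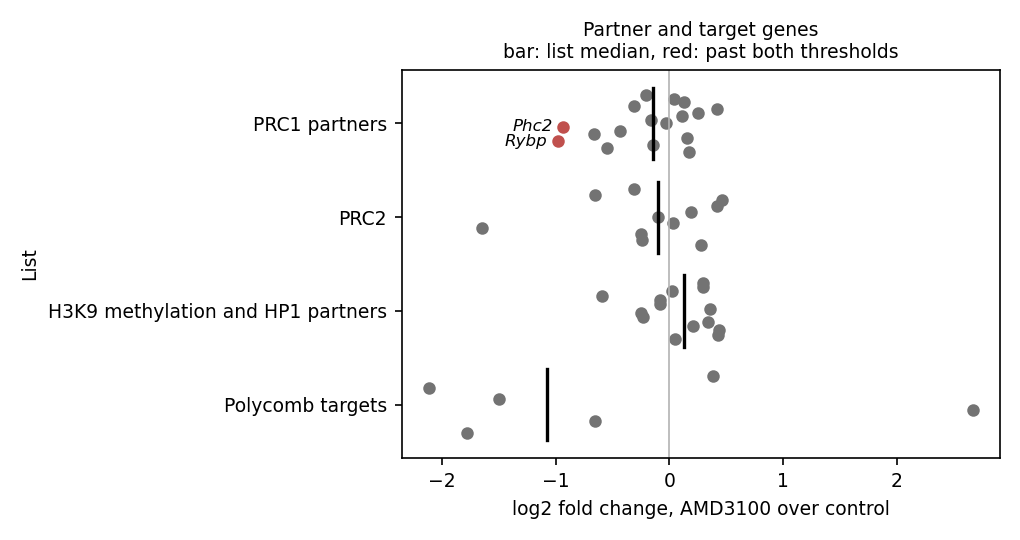
Log2 fold changes of AMD3100 over control for the tested genes of 4 lists, PRC1 partners, PRC2, H3K9 methylation and HP1 partners, and Polycomb targets (points), with list medians (bars). Phc2 and Rybp, in red, are the genes past both thresholds, at -0.94 and -0.99.

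Genes whose pattern over the 6 libraries was most like that of Cbx8 included Zbed3 (r = 0.996), Fam131a (r = 0.993), Znfx1 (r = 0.978) and Irgm2 (r = 0.971). They were among the top 5 of 13314 tested genes with a mean of at least 1 CPM, by Pearson's r of log2(CPM + 1), and the likeness was to a pattern of 6 points in which the treated libraries were low. Zbed3, a zinc finger gene, stood at 9.46, 9.54 and 8.88 CPM in control replicates 1, 2 and 3. It stood at 2.71, 2.77 and 4.79 CPM in AMD3100 replicates 1, 2 and 3. The treated libraries of these 4 genes lay below their control libraries, with log2 fold changes from -2.97 for Irgm2 to -0.37 for Znfx1, a direction that the likeness to Cbx8 itself sets.

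The 3′ end sequences of the other members were largely unique in the genome. In the last 300 bases of Cbx1, Cbx5, Cbx6, Cbx7 and Cbx8, 0 of 251 windows of 50 bases had another place in NCBIM37 with at most 1 mismatch, and 2 of 251 did for Cbx2. Npcd, annotated on the same strand, overlaps the end of Cbx6. Its row held between 66 and 238 counts per library, whereas that of Cbx6 held 4731 in control replicate 1. How reads over the shared end were assigned is not given in the sources used here, so the part of Npcd in the Cbx6 counts was not tested. Of the 7 members, Cbx3 was thus the one whose reads cannot be placed by sequence in this window.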

How the data were processed

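Raw counts of reads per gene, not normalized, were deposited by the authors for 6 libraries, from 3 control and 3 AMD3100-treated tubes. The submitters' processing notes name Bowtie2, edgeR and mm10, and how multiply mapping reads were handled and whether strand was used in counting are not given in the sources used here. Each file held 23282 lines, of which 22 identical repeats were dropped. Counts were compared with edgeR 4.0.16 in R 4.3.3 (TMM, filterByExpr on group, glmQLFit, glmQLFTest, Benjamini-Hochberg adjustment), with group as the only term, and each SE was derived from the coefficient and its F statistic. The thresholds, a fold change over 1.5 and an unadjusted p under 0.05, are given in the study's text, which elsewhere gives a fold change of 2. A version of its procedure, quantile normalization with unlogged fold changes and an equal-variance test, was run as an alternative with limma 3.58.1 on log2(count + 1), a scale chosen here. The other alternatives were limma-voom, DESeq2 1.42.0, upper quartile scaling, 2 other filters on low counts, robust estimation, Rn45s left out, replicate number as a block, replicates 1 and 2 only and each library left out.

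Group and replicate number were taken from the sample labels. Deviations from the group mean correlated at 0.185, 0.171 and 0.584 between control and AMD3100 libraries of replicates 1, 2 and 3, so the fit with the replicate block takes the numbers as pairs, while the main values come from the fit without it. However, control replicate 2 and AMD3100 replicate 1 correlated at 0.198. P-values measure the spread between these tubes, which may be technical. The study's statistics section describes triplicate independent experiments in general and does not name the sequenced tubes. Rn45s, the ribosomal RNA precursor, took 16.2% to 32.5% of the counts. The members and gene lists were chosen with earlier results of these data known, and chromobox genes other than these 7, and some genes that the naming rule selects, are not reported here. The genes named are all members, those of each chromatin list past both thresholds or the 2 with the lowest p where fewer than 2 passed, the 5 most like Cbx8, and the most abundant marker of each cell type with any marker at 0 in a library. Gene positions are those of RefSeq on GRCm38, the build that mm10 denotes. Matches of 50-base windows were counted on NCBIM37 with GENCODE vM1, which is not the build of the authors.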

Additional observations from a re-analysis of the deposited data

How the results depend on the processing

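The number of genes past both thresholds, 228 here, was 479 with DESeq2, 598 with the replicate block, 429 with a version of the study's procedure and 613 with replicates 1 and 2 only, and ranged from 163 to 547 when a library was left out. The highest of these came without control replicate 3 and the next, 451, without AMD3100 replicate 3. Of the genes past both thresholds, 23.7% were higher in AMD3100-treated eSMGs, against 35.1% with DESeq2 and 34.0% with the replicate block. The share was 40.1% with the version of the study's procedure and 43.6% with replicates 1 and 2 only. It was 37.2% without control replicate 2 and 57.8% without control replicate 3. After adjustment, DESeq2 called 5 genes and the replicate block 3, against 0.

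Cbx8 was lower in AMD3100-treated eSMGs under all 15 alternatives that gave a value, with log2 fold changes from -5.34 to -2.50. It passed both thresholds with DESeq2 (-3.21), limma-voom (-3.50) and the version of the study's procedure (-2.50), and did not in the other 12. Leaving out a library moved it between -5.34, without AMD3100 replicate 3, and -2.51. Cbx3 was lower under all 16 alternatives, from -0.57 to -0.23. Phc2 passed both thresholds under all 16 alternatives, and Rybp under 14, the exceptions being replicates 1 and 2 only and without control replicate 3. Directions turned for Cbx2 with limma-voom (0.022) and the replicate block (0.027), and for Cbx7 with limma-voom (0.65) and the replicate block (0.41). When a library was left out, the log2 fold change ranged from -0.23 to 0.55 for Cbx1, -0.0049 to 0.43 for Cbx5, -0.35 to 0.48 for Cbx2, -0.20 to 0.29 for Cbx6 and -1.06 to 0.35 for Cbx7. The Polycomb median, -0.28, was 0.022 with limma-voom and 0.042 with the replicate block, and ranged from -0.54 to -0.13 without a library. The heterochromatin median, 0.18, ranged from -0.23 to 0.42 without a library and was lowest without AMD3100 replicate 2. The causes were not tested.

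With at least 10 counts in every library, Cbx7 and Cbx8 were no longer tested. The version of the study's procedure gives no adjusted p. The replicate block changed no call on a member, with 0 past both thresholds in either fit. Cbx8 had at most 29 counts in a library, and its counting error is given with its values. The control values of Cbx7 had an SD of 3.22 CPM, against 0.563 CPM from counting alone.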
